A study of Mus musculus with 12 samples.

Results

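The genes described here are the nuclear-encoded subunits of respiratory complexes II, III, IV and V, chosen by symbol as Sdha, Sdhb, Sdhc, Sdhd, Cyc1 and every gene whose name starts with Uqcr, Cox4, Cox5, Cox6, Cox7, Cox8 or Atp5. There were 47 such genes among the 19938 genes measured, namely 4 of complex II, 9 of complex III, 17 of complex IV and 17 of complex V. Each gene was read by its brightest probe set that was listed with a single symbol. Transcript levels came from 12 arrays of total RNA from KY-1 and KY-2, natural killer (NK) cell lines of the mouse with the p53KO genotype. Both lines were kept in medium with human IL-15 at 200 U/mL, were transduced with a GFP vector or a GFP-P2A-FLAG-Myb vector, and were sorted for GFP, so these steps were common to all groups. Myb is a transcription factor of blood progenitors, and the series dealt with its place in NK cell maturation. The arrays numbered 3 for KY-1 with GFP, 4 for KY-1 with Myb, 2 for KY-2 with GFP and 3 for KY-2 with Myb, and after averaging of 2 pairs of nearly identical KY-1 arrays each GFP group held 2 replicates and each Myb group held 3. Each line stands for 1 line only, the promoter of the vector is not given in the sources used here, and the labels do not say whether replicates came from separate cultures. The p-values therefore measure the spread among these samples, which may be technical.

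The respiratory chain of the inner mitochondrial membrane passes electrons from NADH and succinate to oxygen and pumps protons, and ATP synthase uses the proton gradient to make ATP. Complex II (succinate dehydrogenase) is also an enzyme of the citrate cycle, complex III hands electrons to cytochrome c, complex IV (cytochrome c oxidase) reduces oxygen, and complex V is the ATP synthase. Activated NK cells raise both glycolysis and oxidative phosphorylation under IL-15, and several small subunits of complex IV exist as a widely expressed isoform and a tissue-restricted isoform, such as the heart and muscle forms Cox6a2, Cox7a1 and Cox8b.

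Nuclear respiratory genes share promoter elements for NRF1, for ETS factors such as GABPA, for YY1 and for the ERR orphan receptors, so the promoters were searched for these elements and for the Myb core. RefSeq promoter entries on GRCm38.p6 were matched for 35 of the 47 genes. The 4 sequences shown are the 250 bases before a transcript start of the RefSeq promoter table, for the gene with the largest difference between the lines (Cox7a1), the gene with the largest rise in KY-2 with GFP (Atp5d), and an ETS and an ERR match among the genes that were higher in KY-2 (Uqcr11 and Atp5g3). For Atp5d and Atp5g3 the window lies inside the span annotated for the gene, so its transcript start is an internal one. The sequences run 5′ to 3′ on the strand of the gene, and capitals mark a match to an NRF1, ETS, YY1 or ERR element. Cox7a1 is at chr7:30183921-30184170 on the plus strand, Atp5d at chr10:80142025-80142274 on the plus strand, Uqcr11 at chr10:80406822-80407071 on the minus strand and Atp5g3 at chr2:73911327-73911576 on the minus strand.
Cox7a1: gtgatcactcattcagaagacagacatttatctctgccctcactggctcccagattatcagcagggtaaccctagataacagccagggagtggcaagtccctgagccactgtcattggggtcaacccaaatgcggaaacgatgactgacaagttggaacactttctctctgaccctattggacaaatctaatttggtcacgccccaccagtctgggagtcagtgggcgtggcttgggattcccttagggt
Atp5d: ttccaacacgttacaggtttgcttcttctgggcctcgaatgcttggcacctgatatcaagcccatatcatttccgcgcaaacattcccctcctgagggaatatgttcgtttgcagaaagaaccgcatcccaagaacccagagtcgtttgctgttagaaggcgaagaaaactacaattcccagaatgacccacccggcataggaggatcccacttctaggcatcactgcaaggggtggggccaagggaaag
Uqcr11: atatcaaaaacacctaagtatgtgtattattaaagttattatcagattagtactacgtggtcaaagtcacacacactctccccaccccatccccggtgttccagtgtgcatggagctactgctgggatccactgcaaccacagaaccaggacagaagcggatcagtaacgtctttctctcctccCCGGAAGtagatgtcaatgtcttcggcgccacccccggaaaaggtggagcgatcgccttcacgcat
Atp5g3: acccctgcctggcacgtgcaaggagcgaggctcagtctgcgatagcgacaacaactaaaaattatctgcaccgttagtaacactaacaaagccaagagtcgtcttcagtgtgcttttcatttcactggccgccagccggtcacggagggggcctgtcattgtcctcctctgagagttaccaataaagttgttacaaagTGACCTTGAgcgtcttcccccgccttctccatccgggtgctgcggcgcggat
The Uqcr11 sequence holds the ETS letters from -66 to -60 relative to that transcript start, and the Atp5g3 sequence holds the ERR letters on the reverse strand from -52 to -44. The Cox7a1 and Atp5d windows hold none of these 4 elements.

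The 300 bases from 250 before to 50 after the transcript start were searched on both strands. A gene counted as a match if any of its promoter entries held the letters. The ETS letters CCGGAAG were in 13 of the 35 genes, or 37.1%, against 12.9% of 17491 protein-coding genes. The NRF1 letters, GCGCA followed directly by their reverse complement, were in 4 (11.4% against 1.47%), namely Atp5g2, Atp5k, Cox6a1 and Uqcrc1. The ERR letters TCAAGGTCA were in 2, Atp5g3 and Sdhd (5.71% against 0.377%), and the YY1 letters AAGATGGC in 3, Atp5j, Atp5j2 and Atp5pb (8.57% against 3.57%). The Myb core AACNG was in 30 (85.7% against 81.5%), so most genes held it in windows of this length. Of the 20 genes with a promoter entry that were higher in KY-2 with GFP, 7 held the ETS letters and 2 the ERR letters. In the same 20 genes, 1 held the NRF1 letters, 1 the YY1 letters and 17 the Myb core. No searched element contains another, and a match describes the letters only.

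Of the 14 NK markers tested, 11 had a mean above 8 on the log2 scale in KY-1 GFP, 10 in KY-1 Myb, 10 in KY-2 GFP and 9 in KY-2 Myb, and their summed level ran from 14.65 to 14.92 over the arrays. Between the lines the NK markers were split, with 5 of the 14 called higher and 6 lower in KY-2 with GFP, and 4 and 7 with Myb. Over all genes, 13.6% were called higher and 15.2% lower with GFP, and 14.7% and 16.9% with Myb. Ncr1, the NK receptor NKp46, was at 9.72 ± 0.08 (SD, n = 2 replicates) in KY-1 GFP and at 5.43 ± 0.50 (SD, n = 2) in KY-2 GFP. Prf1 and Eomes went the other way, from 8.17 and 4.86 in KY-1 GFP to 10.43 and 7.30 in KY-2 GFP. None of 8 T cell markers was above 8 in KY-1, and 2 of 8, Cd3g and Cd8a, were above 8 in KY-2, so that the summed T cell level was 8.36 to 8.83 in KY-1 and 12.56 to 12.92 in KY-2. With each vector 3 of the 8, Cd3g, Cd8a and Cd3d, were called higher in KY-2. With GFP 1 of the 8, Cd3e, was called lower in KY-2, and with Myb 0 were. Cd3d was at 6.33 in KY-1 GFP and 7.72 in KY-2 GFP. Cd3e was at 6.22 in KY-1 GFP, 5.80 in KY-1 Myb, 5.32 in KY-2 GFP and 5.70 in KY-2 Myb, and Cd8b1 was at 4.57, 4.40, 4.36 and 4.36 in the same order, while the array medians lay between 5.31 and 5.42. No B cell marker of 5 and no myeloid marker of 9 exceeded 8 in any group, and of 4 erythroid markers the transferrin receptor gene Tfrc did so in every group. The part of these marker differences in the line differences given next was not tested. Myb itself was at 7.99 ± 0.07 in KY-1 GFP, 9.57 ± 0.02 in KY-1 Myb, 5.05 ± 0.07 in KY-2 GFP and 9.74 ± 0.07 in KY-2 Myb (SD, n = 2, 3, 2 and 3), which fits the labels.

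Many subunit genes were higher in KY-2 than in KY-1, from all 4 complexes, and the largest single difference was a fall of Cox7a1. With the GFP vector, 24 of the 47 genes were higher and 2 were lower in KY-2 than in KY-1, at a limma adjusted p under 0.05 over all genes, and 21 were not called. Over all genes, 13.6% were called higher and 15.2% lower in this comparison. With the Myb vector, measured on other arrays, 23 were higher and 2 lower, against 14.7% and 16.9% of all genes. The calls met in 22 genes higher with both vectors, against 11.1% of all genes, and in the same 2 genes lower, Cox7a1 and Cox4i2. Both comparisons share 1 estimate of the variance per gene, but no array.

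The rises were modest in size. Fold differences of the genes called higher ran from 1.20 to 1.94 with GFP and from 1.16 to 1.64 with Myb. The median log2 difference of the 47 genes was 0.29 with GFP and 0.21 with Myb, against -0.04 and -0.01 over all genes. The sign was the same with both vectors in 46 of the 47, a count that was not made over all genes. Respiratory genes are among the brightest on the array, and brighter genes were called more often, so the share among the 964 genes with a mean above 10 is the closer background. In that class 21 of 38 respiratory genes were higher with GFP and 20 of 38 with Myb, against 23.7% and 24.5% of all genes of the class.

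Single arrays showed the same split. All KY-2 GFP arrays were above all KY-1 GFP arrays in 34 of the 47 genes, against 24.9% of all genes, and all KY-2 Myb arrays above all KY-1 Myb arrays in 27, against 18.5%. All 5 KY-2 arrays lay above all 7 KY-1 arrays in 25 genes, against 13.2% of all genes, and below them in 3, against 15.3%. Since expression was measured in bulk RNA, more cells of a kind and more RNA per cell cannot be told apart. Median centring of the arrays turned the calls over all genes with GFP from 2718 higher and 3039 lower to 3081 and 2218, while the counts of respiratory genes were again 24 and 2. Leaving out KY-2 GFP replicate 1 lowered the count of respiratory genes higher with GFP from 24 to 16, and leaving out KY-2 GFP replicate 2 or KY-1 GFP replicate 3 lowered it to 17. Over all genes the count of higher calls fell in the same fits, from 2718 to 1956, 2168 and 2129 in that order.

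**Figure D1:**
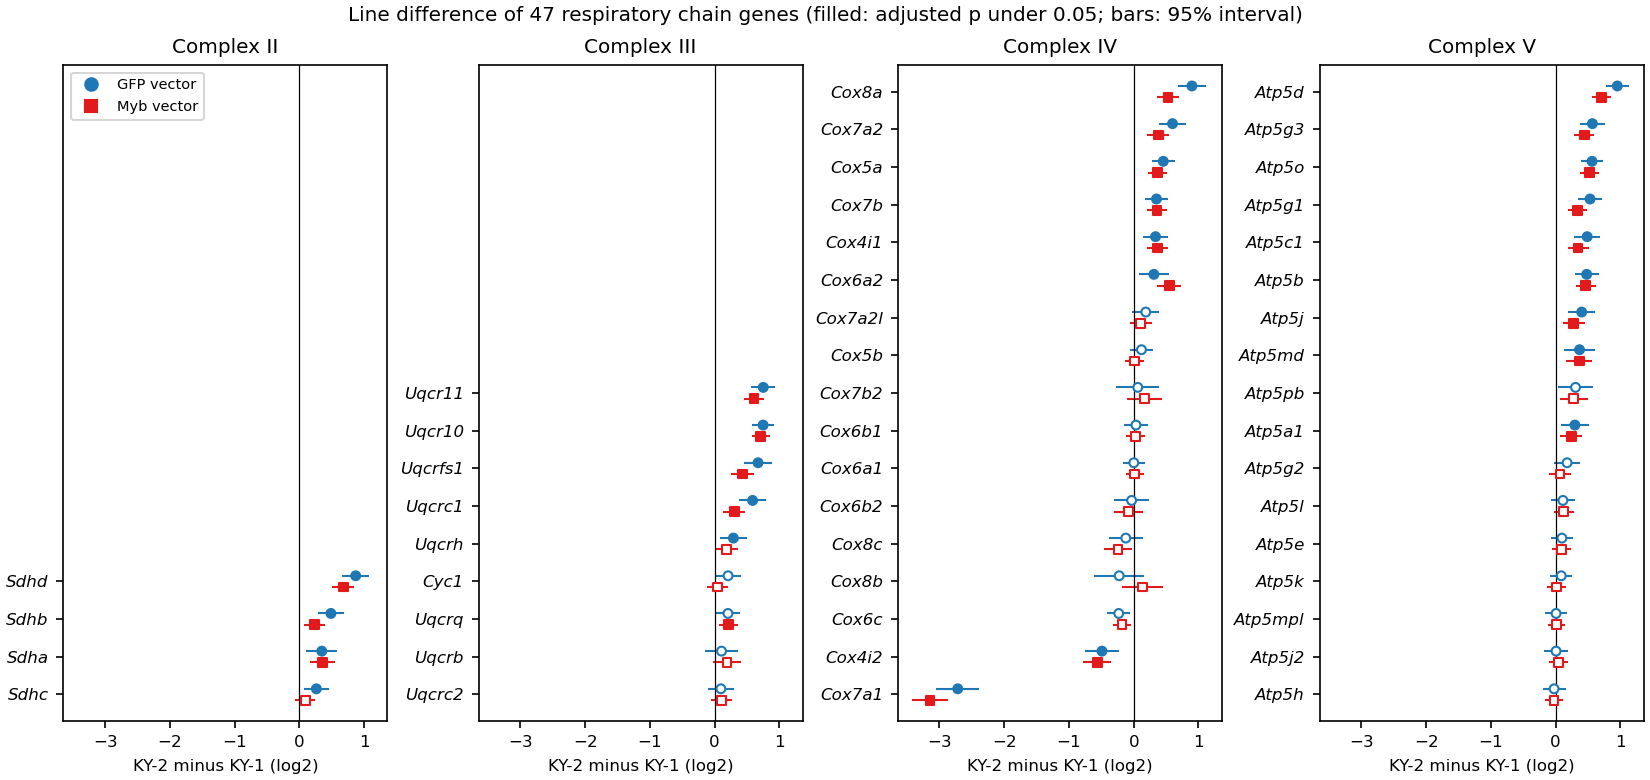
Log2 difference between KY-2 and KY-1 for each of the 47 genes, in panels by complex, with the GFP vector (circles) and the Myb vector (squares). Bars are 95% intervals of the limma fit, filled symbols passed an adjusted p of 0.05, and a reader should see most filled symbols to the right of 0 and Cox7a1 far to the left at -2.72 and -3.15.

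All 4 genes of complex II were called higher in KY-2 with GFP, though 2 of the calls, those of Sdhc and Sdha, were lost when single replicates were left out. Sdhd, a membrane anchor of succinate dehydrogenase, read 9.06, 9.02 and 9.22 on the KY-1 GFP arrays and 9.96 and 10.04 on the KY-2 GFP arrays. With Myb, Sdhd read 9.32, 9.38, 9.26 and 9.28 in KY-1 and from 9.94 to 10.06 over the 3 arrays of KY-2. The KY-2 arrays were all above the KY-1 arrays, and the log2 difference was 0.87 ± 0.09 with GFP (SE, limma adjusted p = 3.3e-05) and 0.68 ± 0.08 with Myb (4.0e-05). Sdhb, the iron-sulfur subunit, was higher by 0.49 ± 0.09 and 0.24 ± 0.07, and Sdha, the flavoprotein that oxidises succinate, by 0.35 ± 0.11 and 0.35 ± 0.09. Sdhc, the other membrane anchor, passed with GFP only (0.26 ± 0.09, limma adjusted p = 0.042) and had 0.09 ± 0.07 with Myb. The Sdhc call was lost in 10 of 21 alternatives, among them without any of 8 replicates, the 4 of the GFP groups included (limma adjusted p = 0.0515 to 0.2). The Sdha call with GFP was lost without any of the 4 GFP replicates (0.0979 to 0.129), and the Sdhb call with Myb without any of 5 Myb replicates, that is all except KY-1 Myb replicate 3 (0.0527 to 0.0993). The difference of the Sdhb and Sdhc line effects between the vectors passed for neither gene.

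In complex III, 5 of 9 genes were higher with each vector. Uqcr10, a small subunit, read 11.83, 11.86 and 11.85 in KY-1 GFP and 12.59 and 12.61 in KY-2 GFP. Uqcr11, another small subunit, read 10.92, 10.91 and 10.85 in KY-1 GFP and 11.60 and 11.66 in KY-2 GFP. In both genes every KY-2 array was above every KY-1 array, and the log2 differences were 0.75 ± 0.08 and 0.75 ± 0.08 (SE, limma adjusted p = 2.9e-05 and 4.3e-05). With Myb they were 0.71 ± 0.06 and 0.61 ± 0.07. Uqcrfs1, the Rieske iron-sulfur protein, was higher by 0.67 ± 0.10 and 0.43 ± 0.08, and Uqcrc1, a core subunit, by 0.59 ± 0.09 and 0.30 ± 0.08. Uqcrc2, the other core subunit, had 0.10 ± 0.09 and 0.10 ± 0.07, and Cyc1, the cytochrome subunit that passes electrons to cytochrome c, had 0.21 ± 0.09 and 0.05 ± 0.07. Neither was called with either vector. Of the remaining small subunits, Uqcrh passed with GFP only (0.29 ± 0.09), Uqcrq with Myb only (0.21 ± 0.07) and Uqcrb with neither. The Uqcrh call was lost in 7 of 21 alternatives, among them without any of the 4 GFP replicates or KY-2 Myb replicate 3 (limma adjusted p = 0.0506 to 0.232), and the Uqcrq call in 9, among them without any Myb replicate except KY-1 Myb replicate 2 (0.0634 to 0.109).

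Complex IV held the largest fall among the 47 genes and several of the larger rises. Of its 9 widely expressed subunits, 5 were higher with each vector. Cox8a, the widely expressed form of subunit VIII, read 10.89, 10.88 and 10.93 in KY-1 GFP and 11.82 and 11.79 in KY-2 GFP. Its Myb arrays read 11.08, 11.06, 11.12 and 11.11 in KY-1 and 11.67, 11.71 and 11.47 in KY-2. The lines did not overlap, and the gap was narrower with Myb, at 0.53 ± 0.08 (SE, limma adjusted p = 3.0e-04), than with GFP, at 0.90 ± 0.10 (3.0e-05). Cox7a2 was higher by 0.60 ± 0.09 and 0.38 ± 0.08, Cox5a by 0.46 ± 0.08 and 0.37 ± 0.07, Cox7b by 0.35 ± 0.08 and 0.36 ± 0.07, and Cox4i1, the widely expressed form of subunit IV, by 0.34 ± 0.09 and 0.37 ± 0.07. The Cox4i1 call with GFP was lost without KY-1 GFP replicate 1 or either KY-2 GFP replicate (limma adjusted p = 0.0645 to 0.0992), and that of Cox7b without KY-1 GFP replicate 3 (0.0546). Cox5b, Cox6a1, Cox6b1 and Cox6c were not called. Cox6c had negative values, -0.23 ± 0.08 and -0.18 ± 0.07 (limma adjusted p = 0.051 and 0.056). The supercomplex factor Cox7a2l had 0.19 ± 0.09 and 0.11 ± 0.08.

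Of the 7 tissue-restricted isoforms, 1 was higher, 2 were lower and 4 were not called with each vector. These shares were 14.3% higher and 28.6% lower. Over all genes, 13.6% were higher and 15.2% lower with GFP, and 14.7% and 16.9% with Myb. Cox7a1, the heart and muscle form of subunit VIIa (chr7:30184171-30186030 on GRCm38.p6), read 8.32, 8.34 and 8.08 in KY-1 GFP and 8.18, 8.40, 8.44 and 8.37 in KY-1 Myb. In KY-2 it read 5.42 and 5.55 with GFP and 5.42, 5.19 and 4.94 with Myb. Every KY-1 array was well above every KY-2 array, and the KY-2 values lay at or near the array medians. The log2 difference was -2.72 ± 0.15 with GFP (SE, limma adjusted p = 1.8e-07, 6.58-fold lower in KY-2) and -3.15 ± 0.12 with Myb (7.6e-09, 8.85-fold lower). Its widely expressed counterpart Cox7a2 was called in the opposite direction. Without detection calls, how much of the low KY-2 value of Cox7a1 is background is not known, so the fold may be understated.

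Cox4i2, a form of subunit IV found mainly in lung, read 6.14, 6.21 and 6.13 in KY-1 GFP and 5.82 and 5.50 in KY-2 GFP, with 6.14, 6.22, 6.20 and 6.28 in KY-1 Myb and 5.78, 5.56 and 5.57 in KY-2 Myb. The lines did not overlap, and the log2 differences were -0.49 ± 0.12 (limma adjusted p = 0.0087) and -0.56 ± 0.10 (0.00085). Without KY-1 GFP replicate 1 or KY-2 GFP replicate 2 the GFP call was lost (limma adjusted p = 0.053 and 0.092). Cox6a2, the heart and muscle form of subunit VIa, was higher in KY-2 by 0.31 ± 0.10 with GFP (limma adjusted p = 0.044) and by 0.55 ± 0.08 with Myb (0.00041). The GFP call was lost in 7 of 21 alternatives, among them without any of the 4 GFP replicates, KY-1 Myb replicate 1 or KY-2 Myb replicate 3 (limma adjusted p = 0.056 to 0.182), while the Myb call was kept in all. Its levels stayed between 6.28 and 7.26 on all arrays, and its widely expressed counterpart Cox6a1, with 0.00 ± 0.08 and 0.02 ± 0.06, was not called. The testis forms Cox6b2, Cox7b2 and Cox8c and the muscle form Cox8b had group means from 3.31 to 5.29, below the array medians, and no calls.

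**Figure D2:**
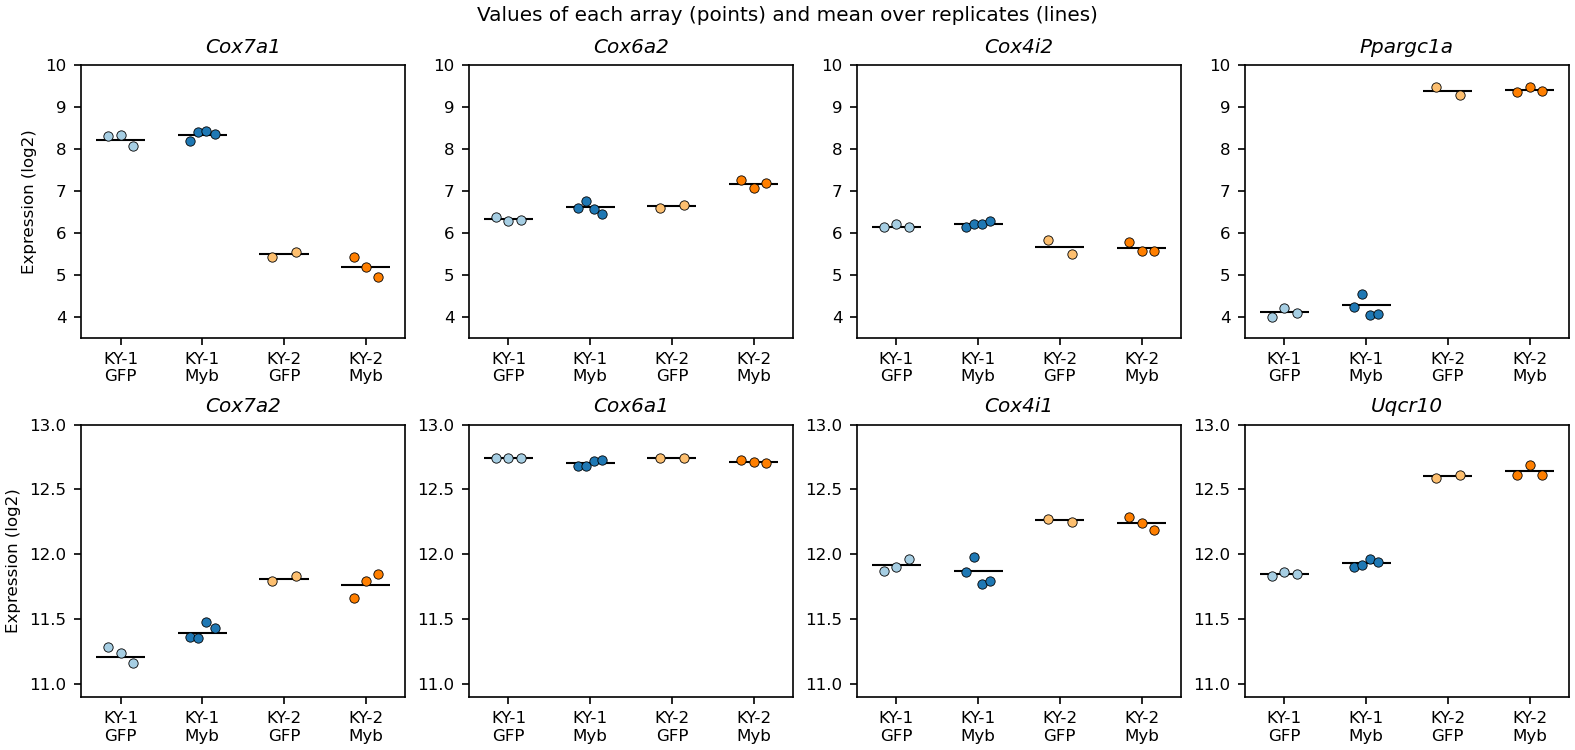
Log2 expression on every array (points) and the mean over replicates (lines) for 4 groups of line and vector; the upper row shows Cox7a1, Cox6a2, Cox4i2 and Ppargc1a and the lower row Cox7a2, Cox6a1, Cox4i1 and Uqcr10, each row on its own axis. Cox7a1 and Cox4i2 are lower and Cox7a2, Cox4i1, Uqcr10 and Ppargc1a higher on every KY-2 array, while Cox6a1 stays between 12.68 and 12.74; levels of different genes are not comparable.

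In complex V, 9 of 17 genes were higher with each vector and none was lower. Of the 5 subunits of the catalytic head and central stalk, 4 were higher with both vectors. Atp5d, the delta subunit of the central stalk, read 10.98, 11.01 and 10.97 in KY-1 GFP and 11.92 and 11.95 in KY-2 GFP. With Myb it read 11.08, 11.19, 11.18 and 11.22 in KY-1 and 11.85, 11.89 and 11.88 in KY-2. The lines were far apart with each vector, and the log2 difference was 0.95 ± 0.08 with GFP (SE, limma adjusted p = 6.0e-06, 1.94-fold) and 0.72 ± 0.07 with Myb (9.3e-06, 1.64-fold), the largest rise among the 47 genes. The catalytic beta subunit Atp5b was higher by 0.48 ± 0.08 and 0.47 ± 0.07, the gamma subunit Atp5c1 by 0.49 ± 0.09 and 0.35 ± 0.07, and the alpha subunit Atp5a1 by 0.30 ± 0.10 and 0.24 ± 0.08. The Atp5a1 call was lost in 7 of 21 alternatives with GFP, among them without any of the 4 GFP replicates, KY-2 Myb replicate 2 or KY-2 Myb replicate 3 (limma adjusted p = 0.0502 to 0.228), and in 8 with Myb, among them without any Myb replicate except KY-1 Myb replicate 1 (0.0569 to 0.139). The epsilon subunit Atp5e had 0.10 ± 0.08 and 0.09 ± 0.06 and was not called.

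The genes Atp5g1, Atp5g2 and Atp5g3 encode the same c subunit of the proton-driven rotor. Atp5g3 read 12.09, 12.08 and 12.10 in KY-1 GFP and 12.68 and 12.64 in KY-2 GFP, and Atp5g1 read 11.66, 11.66 and 11.68 against 12.25 and 12.16. Both were apart without overlap, with log2 differences of 0.57 ± 0.09 and 0.53 ± 0.08 with GFP and 0.44 ± 0.07 and 0.34 ± 0.07 with Myb, and Atp5g2 had 0.18 ± 0.09 and 0.07 ± 0.08. In the peripheral stalk, Atp5o (the oligomycin sensitivity subunit) read 11.35, 11.31 and 11.41 in KY-1 GFP and 11.92 and 11.94 in KY-2 GFP. It was higher by 0.56 ± 0.08 and 0.53 ± 0.06, and Atp5j was higher by 0.40 ± 0.09 and 0.28 ± 0.08. Atp5pb, with 0.31 ± 0.12 and 0.28 ± 0.10, and Atp5h were not called. Of the 5 accessory membrane subunits, Atp5md was higher (0.37 ± 0.11 and 0.36 ± 0.09) and Atp5j2, Atp5k, Atp5l and Atp5mpl were not. The Atp5j call was lost with GFP without KY-2 GFP replicate 1 (limma adjusted p = 0.0679) and with Myb without KY-1 Myb replicate 1 or KY-2 Myb replicate 2 (0.06 and 0.0663). The Atp5md call with GFP was lost without KY-1 GFP replicate 3 or either KY-2 GFP replicate (0.0797 to 0.142).

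The line difference was read against the starting level. Of the 12 genes at 12 or above on the log2 scale in KY-1 GFP, 3 were called higher with GFP, and of the 28 between 8.5 and 12, 20 were. The medians were 0.105 and 0.430 with GFP, and 0.057 and 0.344 with Myb, whose arrays did not set the classes. The 7 genes under 8.5, the tissue-restricted isoforms, did not continue this order, with 1 called higher, 2 lower and 4 not called. The brightest gene was Cox6a1 at 12.74, and the highest value on any array was 13.96.

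**Figure D3:**
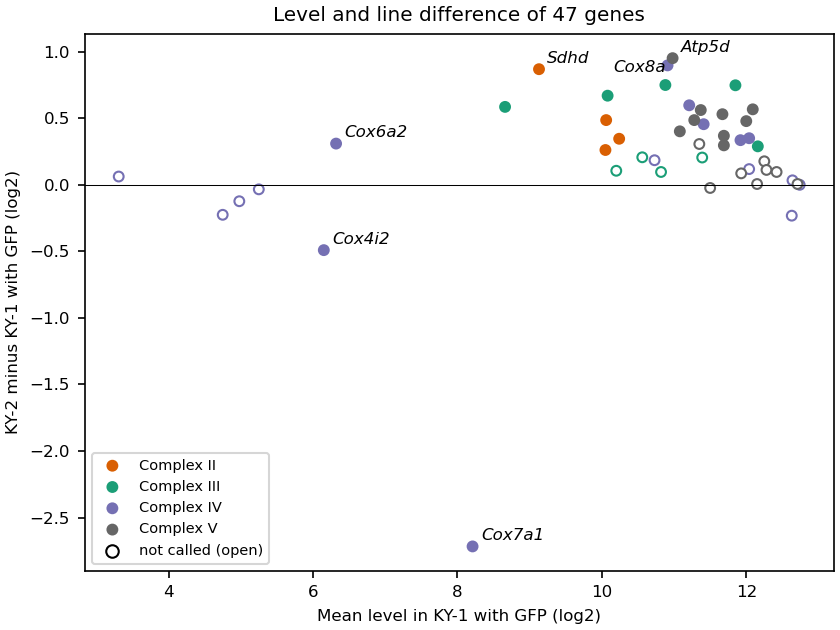
Log2 difference between KY-2 and KY-1 with the GFP vector, on the vertical axis, against the mean level in KY-1 GFP, on the horizontal axis, for the 47 genes coloured by complex, filled where called. The genes at 12 and above have a median of 0.105, with 3 of 12 called higher. Those between 8.5 and 12 have a median of 0.430, and Cox7a1 stands alone at -2.72.

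Probe sets were compared where a gene had several, which was the case for 12 of the 47. Their line differences had the same sign for each gene except Atp5h, whose 3 probe sets had -0.02, 0.02 and 0.11 with GFP. Uqcr11 had 0.75 on the brightest probe set and 1.03 on the other, and Cox7b 0.35 and 0.56. These families have many processed pseudogenes, and probe sets may read near-identical copies, so the values are uncertain in that respect. Cox7c was on 3 probe sets that also carry another symbol and was not counted among the 47 genes.

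Between the vectors few genes were called, among the 47 as over all genes. In KY-1 none of the 47 was called between the Myb and GFP vectors by limma, where 1.22% of all genes were called. There 5 of the 47 had an unadjusted limma p under 0.05, against 2192 of 19938 genes. With an intensity trend in the variance prior 1 was called, Atp5g1. In KY-2 1 gene was called, against 2.83% of all genes. There 3 of the 47 had an unadjusted limma p under 0.05, against 2630 of 19938 genes. The gene called was Cox6a2, which read 6.60 and 6.66 with GFP and 7.26, 7.07 and 7.19 with Myb. All Myb arrays were higher, by 0.54 ± 0.09 (SE, limma adjusted p = 0.011, 1.45-fold). The call was lost without KY-2 GFP replicate 1 (limma adjusted p = 0.134) or without replicate 2 (0.064).

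In KY-1, Cox6a2 read 6.38, 6.28 and 6.31 with GFP and 6.59, 6.77, 6.57 and 6.46 with Myb. These arrays did not overlap either, and the difference of 0.30 ± 0.09 did not pass (limma adjusted p = 0.23). The Myb effects on Cox6a2 differed between the lines by 0.24 ± 0.13 (limma adjusted p = 0.59), so a difference between the lines was not shown. Cox6a2 stayed between 6.28 and 7.26 on all arrays, above the array medians of 5.31 to 5.42. Without detection calls, how much of this level is background is not known.

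The widths of the intervals show what the arrays could have seen. The 95% interval of the Myb effect lay within 1.5-fold in either direction for 46 of the 47 genes in KY-1, the exception being Cox8b, and for 45 in KY-2, the exceptions being Cox6a2 and Cox7a1. The medians of the Myb effect were 0.03 for KY-1 and -0.03 for KY-2, against -0.00 and 0.01 over all genes. Cox7a1 had 0.12 ± 0.14 in KY-1 and -0.31 ± 0.14 in KY-2 (limma adjusted p = 0.83 and 0.37). Sdhb had -0.22 ± 0.08 in KY-2 (limma adjusted p = 0.25). In KY-1, Atp5g1 had 0.19 ± 0.07 and Atp5d 0.18 ± 0.07 (limma adjusted p = 0.37 and 0.41).

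The Myb effect was also compared between the lines. None of the 47 genes was called by limma, where 0.843% of all genes were. Cox8a, Uqcrc1 and Atp5d, 3 of the 47, had an unadjusted limma p under 0.05, against 2056 of 19938 genes. With the intensity trend 1 was called, Cox8a. Cox8a had 0.18 ± 0.09 in KY-1 and -0.19 ± 0.09 in KY-2, a difference of -0.37 ± 0.12 (SE, limma adjusted p = 0.29). This contrast equals the change of the line difference between vectors, so the narrower Cox8a gap with Myb did not pass the test. The median over the 47 genes was -0.06, and 14 of them had a positive sign. Over all genes the median of this contrast was 0.01, and 10459 of 19938 had a positive sign.

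**Figure D4:**
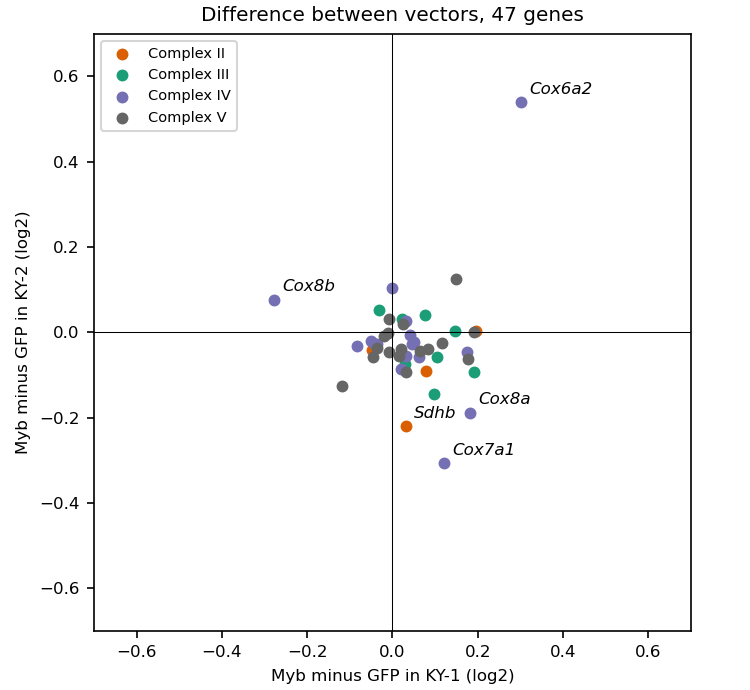
Log2 difference between the Myb and GFP vectors in KY-1, on the horizontal axis, and in KY-2, on the vertical axis, for the 47 genes coloured by complex, 1 point per gene without error bars. Points gather around 0 in both lines, and Cox6a2 stands apart at 0.30 in KY-1 and 0.54 in KY-2.

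Other genes of respiration were counted from lists compiled by hand. For each list below, the shares over all genes were 13.6% higher and 15.2% lower with GFP, and 14.7% and 16.9% with Myb. Among genes with a mean above 10, 23.7% were higher with GFP and 24.5% with Myb. Among 35 subunits of complex I, the NADH dehydrogenase, 14 were higher and 0 lower in KY-2 with GFP, and 15 were higher and 2 lower with Myb, with medians of 0.23 and 0.17. Ndufs8, an iron-sulfur subunit, read 9.62, 9.62 and 9.55 in KY-1 GFP and 11.25 and 11.17 in KY-2 GFP, a log2 difference of 1.63 ± 0.09. Ndufv1, which binds NADH, differed by 1.27 ± 0.09. Among 33 assembly factors of complexes II to V, 13 were higher and 1 lower with GFP, and 10 and 4 with Myb. Cox10 and Cox15, which make the haem of complex IV, were higher by 1.16 ± 0.10 and 0.92 ± 0.09 with GFP, and Sco1, which delivers copper to it, by 1.08 ± 0.10. Sdhaf1, which helps to insert iron-sulfur clusters into Sdhb, was lower by -0.72 ± 0.10, against the direction of Sdhb itself.

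Of 15 carriers, exchangers and inhibitors, 7 were higher and 1 lower with GFP, and 6 and 1 with Myb. Slc25a3, the phosphate carrier that feeds ATP synthase, was at 9.97 ± 0.04 in KY-1 GFP and 11.02 ± 0.02 in KY-2 GFP (SD, n = 2 each), a difference of 1.04 ± 0.09. Slc25a4, which exchanges ADP for ATP, was higher by 0.47 ± 0.10, and Atpif1, an inhibitor of ATP synthase, was the gene lower, by -0.31 ± 0.08. Cycs, cytochrome c, had 0.19 ± 0.10 and was not called. The list of 17 citrate cycle enzymes also holds the pyruvate enzymes Pdha1, Pdhb, Dlat and Pcx. Of the 17, 11 were higher and 0 lower with each vector, with medians of 0.40 and 0.41. Pdha1, Dlat and Pcx were among the 11 with GFP. Ogdh, of the oxoglutarate dehydrogenase complex, was higher by 1.61 ± 0.08 with GFP and 1.42 ± 0.07 with Myb, and Idh2, a mitochondrial isocitrate dehydrogenase, by 1.91 ± 0.12 and 1.32 ± 0.10. None of the 10 mitochondrially encoded subunits on the list was tested.

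Regulators of mitochondrial gene expression were split. Of 15 tested, 6 were higher and 2 lower with GFP, and 5 and 2 with Myb. Ppargc1a encodes the coactivator PGC-1alpha, which is known to act with NRF1 and ERR factors on respiratory genes. It read 4.21 at the highest on the 3 arrays of KY-1 GFP (mean 4.10 ± 0.01, SD, n = 2 replicates), 4.23, 4.54, 4.03 and 4.05 in KY-1 Myb, 9.48 and 9.29 in KY-2 GFP, and 9.37, 9.47 and 9.39 in KY-2 Myb. The KY-1 arrays lay below the array medians and the KY-2 arrays far above them, and the log2 difference was 5.28 ± 0.14 with GFP and 5.14 ± 0.11 with Myb (limma adjusted p = 6.5e-10 and 1.0e-10). Without detection calls, how much of the KY-1 value is background is not known, so the size of this difference is uncertain. Esrra, an ERR receptor gene, was higher by 0.51 ± 0.12 and 0.40 ± 0.10, Gabpa by 0.41 ± 0.11 and 0.52 ± 0.09, and Pprc1 by 0.40 ± 0.09 and 0.44 ± 0.08. Myc was lower by -1.47 ± 0.08 and -1.58 ± 0.07, and Yy1 by -0.54 ± 0.08 and -0.55 ± 0.07. Nrf1, Tfam, which packages mitochondrial DNA, and Ppargc1b were not called. The part of any of these genes in the levels of the respiratory subunits was not tested.

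**Figure D5:**
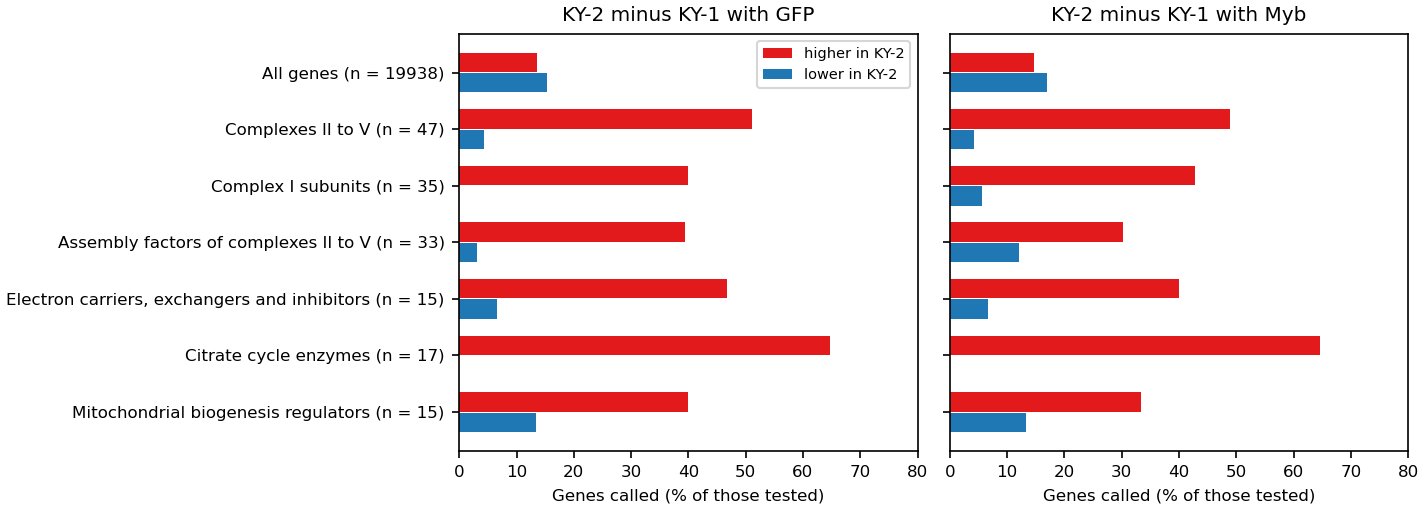
Percent of genes called higher and lower in KY-2 than in KY-1, for all genes, the 47 genes of complexes II to V and the lists of related genes, with the GFP vector (left) and the Myb vector (right). The 47 genes stand at 51.1% higher with GFP and 48.9% with Myb, against 13.6% and 14.7% of all genes.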

How the data were processed

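Single-colour Affymetrix arrays of total RNA were analysed from the values the authors deposited, which are log2 expression summaries per probe set. The submitters' processing notes name Partek and RMA, with versions and options not given in the sources used here. RMA includes a background correction, a normalization between arrays and a summary over probes, so levels are relative within the set, and there are no detection calls. Of 35556 probe sets, 21789 were listed with 1 symbol and gave 19938 genes. For genes with several, the brightest over the 12 arrays was used, and none was filtered out. Arrays 1 and 2 of KY-1 GFP differed with a robust SD of at most 0.0469 over probe sets whose mean exceeded 7, and so did arrays 3 and 4 of KY-1 Myb. Other pairs of a group had 0.102 to 0.172, so each close pair was averaged as 1 replicate.

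A single linear model of the 4 group means was fitted to all genes with limma 3.58.1 in R 4.3.3 (6 residual degrees of freedom, prior 4.89), with Benjamini-Hochberg adjustment over all genes and a threshold of 0.05. Errors on differences are standard errors of this fit, and errors on levels are SDs over replicates. The fit was tested on simulated data. Precision is limited by the number of arrays. The members, lists and tests were chosen with earlier results of these data known. Named genes were, per contrast, up to 6 called members in each direction by smallest p (the 3 smallest where under 3 were called), complex II, Cyc1, the tissue isoforms with their partners, and up to 4 called genes per related list with Cycs and Atpif1. Other names were chosen with their values known. Promoters came from RefSeq on GRCm38.p6. The alternatives were other treatments of the close pairs, a replicate block, a filter on dim genes, quantile normalization, median centring, averaged probe sets, robust or trended moderation, weights per array, fits of the compared arrays and leaving out each replicate. The background among genes with a mean above 10 was added after seeing the data.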

Additional observations from a re-analysis of the deposited data

Results flagged for a closer look

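The measured level of Myb differed between the lines in its rise with the Myb vector, which itself encodes FLAG-Myb. Whether the probe set reads the vector transcript, the transcript of the cell's own gene or both was not tested. Myb rose by 1.58 in KY-1 and by 4.69 in KY-2 on the log2 scale, and the interaction term of the limma fit was 3.11 ± 0.11 (SE, adjusted p = 3.84e-07). With GFP, Myb was at 7.99 in KY-1 and 5.05 in KY-2, and with the Myb vector at 9.57 and 9.74. Every Myb array was above every GFP array of its line. None of the 47 respiratory genes met a criterion for a closer look.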

How the results depend on the processing

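Each result was recomputed under 21 alternatives. Among 1647 values of the called genes, complex II, Cyc1, the isoforms with their partners and some genes of the Myb contrasts, 1558 kept their direction and side of the threshold, 72 lost the call, 7 gained it and 10 changed sign. Of the 51 calls between the lines, 26 with GFP and 25 with Myb, 14 were lost in at least 1 alternative (10 and 4), as given above, and so was the Cox6a2 call in KY-2. No call changed sign. The changes of sign were in differences not called, namely Cox6b2 with GFP (0.000 with 12 separate arrays, 0.026 with quantile normalization, 0.032 with median centring, -0.133 to 0.067 without single replicates) and, over the fits without single replicates, Cox7a1 in KY-1 (-0.004 to 0.247), Cox6b1 with GFP (-0.005 to 0.075), and Cox6b2 (-0.151 to 0.010), Cox8b (-0.042 to 0.225) and Cyc1 (-0.000 to 0.096) with Myb. Calls were gained for Cyc1 with GFP in 3 alternatives, for Cox7b2 with Myb in 1, and with trended moderation for Atp5g1 in KY-1 (adjusted p = 0.0262), Sdhb in KY-2 (0.0432) and Cox8a in the difference (0.0266). Trended moderation called 1 gene in KY-1, 2 in KY-2 and 1 in the difference between the Myb effects. Leaving out single replicates gave 0 to 1 calls in KY-2, 18 to 26 between the lines with GFP and 21 to 26 with Myb. Of the 22 genes higher with both vectors, 14 were called in the main fit and under all 21 alternatives with both.

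The median of the 47 genes between the lines with GFP was 0.255 when the 12 arrays each counted as a replicate, 0.245 with the replicate block, 0.245 with quantile normalization and 0.355 with median centring, and ran from 0.229 to 0.297 without single replicates. All were positive, and the spread of this median between replicates was 0.034. With median centring the median was 0.075 for Myb in KY-1 and -0.121 for the difference of Myb effects. Median centring adds a constant per array to every gene, so it moved the differences of all genes alike. The median over all genes went from -0.039 to 0.026 between the lines with GFP. It went from -0.001 to 0.042 for Myb in KY-1 and from 0.010 to -0.053 for the difference of Myb effects. The causes of the other shifts were not tested.

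Pairing of the samples by replicate number was not shown, as 1 of 15 pairs of the same number correlated above 0.1 (range -0.340 to 0.193). These correlations used deviations from the group mean, so those of the 2 KY-2 GFP arrays mirror each other. With groups this small the check cannot exclude pairing. Pairs of different numbers ran from -0.328 (KY-1 GFP array 3 with KY-1 Myb array 4) to 0.372 (KY-1 Myb array 2 with KY-2 Myb array 1). Whether arrays of different groups share a batch was not tested. With the replicate block 23 genes were higher and 3 lower with GFP and 21 and 2 with Myb. The number of arrays, the missing detection calls and a single line of each kind limit these results.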
